A study of Homo sapiens with 4 samples.

Results

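The Y RNAs and vault RNAs are small noncoding RNAs that work as parts of RNA-protein particles. The 9 genes described here were chosen by name: the Y RNA genes RNY1, RNY3 and RNY4, the vault RNA genes VTRNA1-1, VTRNA1-2 and VTRNA1-3, and the genes of 3 proteins of their particles, RO60 (older name TROVE2), SSB and MVP. They are 9 of 56044 annotated genes listed in the files, and 46 of 393483 listed transcripts. A gene's value is the sum of its annotated transcripts in FPKM, fragments scaled to transcript length and to the number of mapped fragments.

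The samples were WI-38 cultures. WI-38 is an established human lung fibroblast line that stops dividing after many passages, which is called replicative senescence. The 4 libraries were senescent mitoplasts and senescent whole cells, both at population doubling level 60, and young mitoplasts and young whole cells, both at population doubling level 21. Neither age had a drug or a genetic change in its labels. Mitoplasts are mitochondria that have lost their outer membrane: here a crude mitochondrial pellet was swollen and treated with RNase A on 2 occasions before RNA was extracted, while the whole-cell RNA had no such treatment. The libraries were made with an Illumina TruSeq RNA kit, which is not a small-RNA kit. Each group holds 1 library of 1 cell line, so the differences below come with no replicate, no standard error and no p-value.

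Y RNAs are transcribed by RNA polymerase III and fold into a stem with a loop. The protein RO60, a ring-shaped protein, binds the stem, and SSB, the La protein, binds the run of U residues at the end of the RNA. Particles of Y RNA and RO60 are known for the quality control of misfolded RNAs, and Y RNAs have also been tied to the start of DNA replication. Vault RNAs are RNA polymerase III transcripts as well and sit in the vault, a hollow barrel of the cytoplasm that is built mainly from the major vault protein, MVP. VTRNA1-1 is also known as a regulator of autophagy in human cells.

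The Y RNA genes lie together on chromosome 7 and the vault RNA genes on chromosome 5, in the GRCh38 positions of GENCODE release 29. RNY1 is at chr7:148987136-148987248 on the minus strand, with RNY3 between it and RNY4, which is at chr7:148963315-148963410 on the plus strand, within 23.9 kb. VTRNA1-1 is at chr5:140711275-140711373, VTRNA1-2 at chr5:140718925-140719013 and VTRNA1-3 at chr5:140726158-140726246, all on the plus strand and within 15.0 kb. None of the 6 overlaps another annotated gene. The deposited values were made on another build, so genes were matched by transcript ID and no coordinate was converted.

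The sequences of RNY1 and RNY4 are shown because they share their ends while the middle differs. Capitals mark the opening 11 bases that both share and the closing run of T, written as DNA, 5′ to 3′.
RNY1: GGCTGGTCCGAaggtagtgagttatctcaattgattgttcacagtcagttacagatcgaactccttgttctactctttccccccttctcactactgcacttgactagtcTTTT
RNY4: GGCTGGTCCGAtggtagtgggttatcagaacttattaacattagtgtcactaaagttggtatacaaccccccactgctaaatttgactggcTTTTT
RNY1 is 113 nt long, RNY3 102 nt and RNY4 96 nt. Over a global alignment RNY1 and RNY3 were 72.6% identical, RNY1 and RNY4 63.7% and RNY3 and RNY4 65.1%. Among 4408 annotated transcripts of 80 to 120 nt, 38 (0.862%) open with the same GGCTGGTCCGA and 569 (12.9%) end in 4 or more T. The opening was taken from RNY1, RNY3 and RNY4, which are among the 38.

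The vault RNA sequences are shown because they share long stretches, among them the first 29 bases, which bears on how well reads can be assigned among them. Capitals mark the letters GTTCGANNCC, a form of the B box of RNA polymerase III promoters, and the closing run of T.
VTRNA1-1: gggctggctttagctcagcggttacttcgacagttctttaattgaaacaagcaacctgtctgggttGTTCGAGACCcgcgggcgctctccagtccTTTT
VTRNA1-2: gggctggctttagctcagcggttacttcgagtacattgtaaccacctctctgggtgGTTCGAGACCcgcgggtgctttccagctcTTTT
VTRNA1-3: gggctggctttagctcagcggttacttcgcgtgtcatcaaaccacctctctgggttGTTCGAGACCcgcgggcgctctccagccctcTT
VTRNA1-1 is 99 nt long, and VTRNA1-2 and VTRNA1-3 are 89 nt. VTRNA1-1 was 81.8% identical to VTRNA1-2 and 83.0% to VTRNA1-3, and VTRNA1-2 and VTRNA1-3 were 87.8% identical. The first 29 bases are the same in all 3. Searched on both strands, the B box letters occur in 6 of the 4408 transcripts of 80 to 120 nt (0.136%). The letters were taken from VTRNA1-1, and the 3 vault RNAs are among the 6.

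The labels and the depth were checked on the whole tables first. Of 14 fibroblast markers, 9 were at 1 FPKM or more in senescent mitoplasts, 13 in young mitoplasts and 14 in each whole-cell library. Their summed level was 1036 FPKM in senescent mitoplasts, 5676 in young mitoplasts, 4644 in senescent whole cells and 8432 in young whole cells. Most of the young mitoplast sum was VIM alone, at 4312 FPKM there and listed at 0 in senescent mitoplasts. The summed blood markers reached 16.8 FPKM in young mitoplasts and at most 0.502 FPKM elsewhere, the endothelial markers lay between 8.23 and 32.5 FPKM and the epithelial markers between 22.7 and 29.7 FPKM. All 13 mitochondrial-encoded mRNAs were above 0 in both young libraries, summing to 593653 FPKM in mitoplasts and 170329 FPKM in whole cells. In senescent mitoplasts 12 of the 13, and in senescent whole cells 11, were listed at 0. Their locus held an assembled transcript without an annotation, at 48513 FPKM in senescent mitoplasts and 18676 FPKM in senescent whole cells. A value of 0 in these files therefore says only that the transcript is listed at 0.

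Depth is not given in counts, but short RNAs gave the value of 1 fragment at their length. In 3 of the 4 libraries, loci of 102 nt with 1 transcript piled up near 1 lowest value, which was taken as the value of 1 fragment. In young whole cells 12 of 22 such loci lay between 7.61 and 8.58 FPKM and the next was at 15.4 FPKM. In senescent whole cells 7 of 15 lay between 9.00 and 9.63 FPKM and the next was at 17.1 FPKM. In young mitoplasts 5 of 12 lay between 13.7 and 16.5 FPKM and the next was at 29.1 FPKM. Senescent mitoplasts had no such group: 1 of 5 loci was lowest, at 11.9 FPKM, the next was at 22.8 FPKM, and the fit there rests on 7 loci, so its fragment counts are the least certain. From a fit over lengths, 1 fragment at 102 nt was worth 13.7 FPKM in senescent mitoplasts, 14.7 in young mitoplasts, 9.19 in senescent whole cells and 7.94 in young whole cells. The fall with length differed between libraries: 26.4 FPKM at 89 nt and 8.91 at 113 nt in young mitoplasts, 12.6 and 5.38 in young whole cells. The value of 1 fragment is therefore not a measure of depth alone. The scatter of loci around the fit was 15.3% in senescent mitoplasts, 11.6% in young mitoplasts, 7.8% in senescent whole cells and 6.8% in young whole cells. Dividing by the value of 1 fragment gave the approximate fragment counts below, with exact 95% Poisson intervals that cover counting error only. Entries of 102 nt outside these loci could lie under that value, such as ENSG00000238723 at 0.665 FPKM in young whole cells. A value therefore need not stand for a whole number of fragments.

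Of RNY1, RNY3 and RNY4, RNY1 had the highest FPKM in whole cells at both ages, and RNY1 was higher in the senescent library. RNY3 and RNY4 had lower values in the senescent library, with counting intervals that overlapped between the ages. The summed Y RNAs, here RNY1, RNY3 and RNY4 only, stood at 1668 FPKM in senescent and 956 FPKM in young whole cells. The log2 ratio of these sums was 0.80. RNY1 made up 88.5% of the sum in senescent whole cells and 67.2% in young whole cells.

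RNY1 was at 1476 FPKM in senescent whole cells, about 239 fragments (210 to 271), against 642 FPKM in young whole cells, about 119 fragments (98.6 to 142). The log2 ratio was 1.20, and the counting intervals of the levels, 1294 to 1675 FPKM in senescent and 530 to 766 FPKM in young whole cells, did not overlap. RNY3 was at 128 FPKM in senescent whole cells, about 14 fragments (7.7 to 23.5), and at 150.0 FPKM in young whole cells, about 19 fragments (11.4 to 29.7). Its log2 ratio of −0.23 had overlapping intervals, and it was 0.03 with the libraries rescaled to equal sums over annotated genes and 0.04 with equal sums over nuclear coding genes. RNY4 was at 63.7 FPKM in senescent whole cells, about 6 fragments (2.2 to 13.1), and at 164 FPKM in young whole cells, about 17 fragments (9.9 to 27.2). The log2 ratio of −1.35 rests on few fragments, and the intervals overlapped.

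VTRNA1-1 carried nearly all of the vault RNA signal. It was at 986 FPKM in senescent whole cells, about 96 fragments (77.8 to 117), and at 486 FPKM in young whole cells, about 55 fragments (41.4 to 71.6). The log2 ratio was 1.02 and the counting intervals did not overlap. It made up 98.4% of the summed vault RNAs in senescent whole cells and 91.7% in young whole cells. VTRNA1-2 was at 15.6 FPKM in senescent whole cells, about 1 fragment, and was listed at 0 in young whole cells. VTRNA1-3 was listed at 0 in senescent cells, against 44.0 FPKM, about 3.5 fragments before rounding, in young whole cells. The opposite order of VTRNA1-2 and VTRNA1-3 rests on these few fragments and cannot be told apart from counting error.

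The order of the RNAs within a library was not always the same in fragments as in FPKM. RNY1 led VTRNA1-1 in both whole-cell libraries, and the intervals of their fragment counts did not overlap. In FPKM the intervals overlapped in young whole cells, at 530 to 766 for RNY1 and 366 to 632 for VTRNA1-1. RNY4 stood above RNY3 in young whole cells in FPKM, at 164 against 150.0, but below it in fragments, at about 17 against 19, because 1 fragment was worth 9.83 FPKM at the length of RNY4 and 7.94 FPKM at that of RNY3. Neither order exceeds the counting error.

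**Figure D1:**
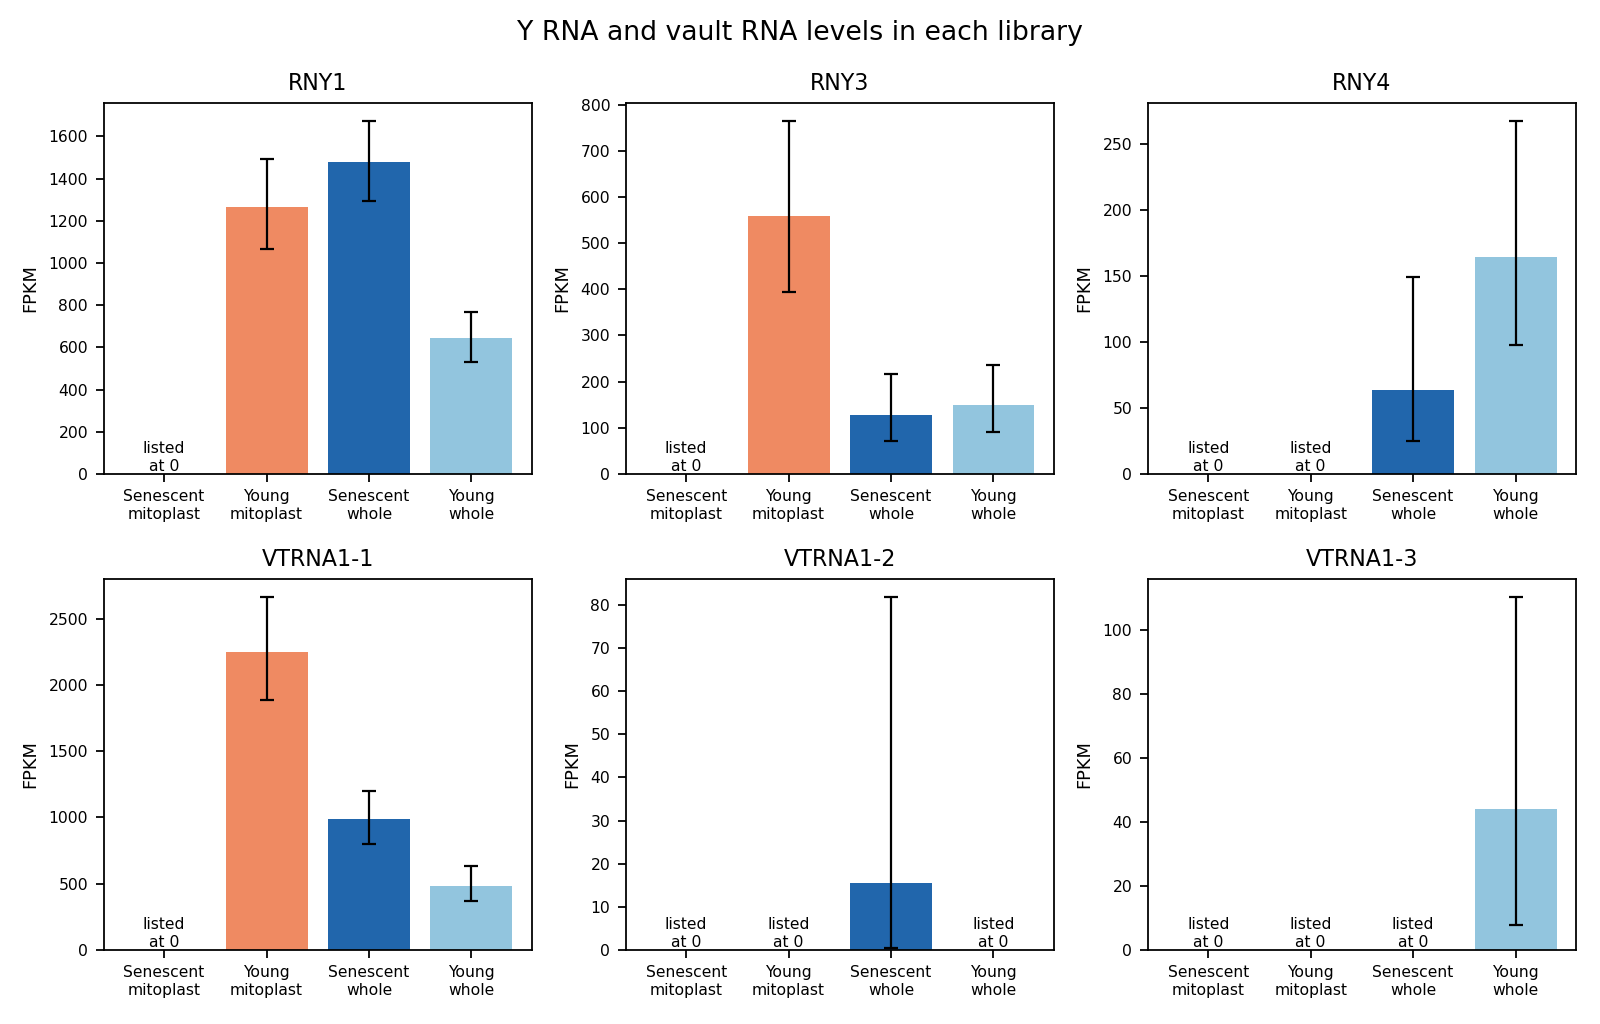
Level of each Y RNA and vault RNA in FPKM (vertical axis, from 0, own scale per panel) in the senescent mitoplast, young mitoplast, senescent whole-cell and young whole-cell library. Bars are single libraries and error bars are 95% Poisson intervals from the approximate fragment counts; RNY1 and VTRNA1-1 were higher in senescent than in young whole cells, and all 6 RNAs were listed at 0 in senescent mitoplasts.

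The protein genes of the same particles differed in direction between the ages when all annotated transcripts were summed. RO60 stood at 64.2 FPKM in senescent whole cells and 39.1 FPKM in young whole cells (log2 ratio 0.70). SSB stood at 104 FPKM in senescent whole cells and 153 FPKM in young whole cells (−0.56). MVP stood at 135 FPKM in senescent whole cells and 42.2 FPKM in young whole cells (1.65).

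These sums hide which transcript carried the value. The MVP level in senescent whole cells came mostly from ENST00000563558, a coding entry of 548 nt, at 121 FPKM and listed at 0 in young whole cells. The full-length MVP transcript, ENST00000357402 of 2870 nt, stood at 13.5 FPKM in senescent whole cells and 42.2 FPKM in young whole cells, so its log2 ratio was −1.58 where that of the gene was 1.65. The higher MVP value in senescent whole cells therefore depends on the short entry. The locus the authors' assembly gave MVP also held 5 other genes in each whole-cell library and an assembled transcript across it, at 29.6 FPKM in senescent whole cells and 67.4 FPKM in young whole cells.

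SSB showed the same dependence in a milder form. Its full-length coding transcript ENST00000260956, of 1709 nt, stood at 41.3 FPKM in senescent whole cells and 39.4 FPKM in young whole cells (log2 ratio 0.07). A retained-intron entry of 440 nt, ENST00000470621, made up the rest, with 62.3 FPKM in senescent whole cells and 113 FPKM in young whole cells. The coding transcript was thus nearly level, and the difference of the gene sum lay in an entry that codes for no protein.

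RO60 had no transcript above 0 in both whole-cell libraries. In senescent whole cells its whole value of 64.2 FPKM was ENST00000415442, a coding entry of 377 nt. In young whole cells it was spread over ENST00000367443 at 7.93 FPKM, ENST00000367444 at 11.5 FPKM, ENST00000367445 at 9.00 FPKM and the processed transcript ENST00000460715 at 10.7 FPKM. The RO60 locus further held 2 assembled transcripts summing to 49.6 FPKM in senescent whole cells and none above 0 in young whole cells. RO60 (chr1:193059422-193091777, plus strand) overlaps UCHL5 and GLRX2 on the minus strand, SSB (chr2:169791933-169812064, plus strand) overlaps METTL5 on the minus strand, and MVP (chr16:29820394-29848039, plus strand) overlaps AC120114.4 on its own strand and AC009133.1 on the other. No source used here gives the strand setting of the counting, so reads of these neighbours cannot be told apart from those of the members.

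**Figure D2:**
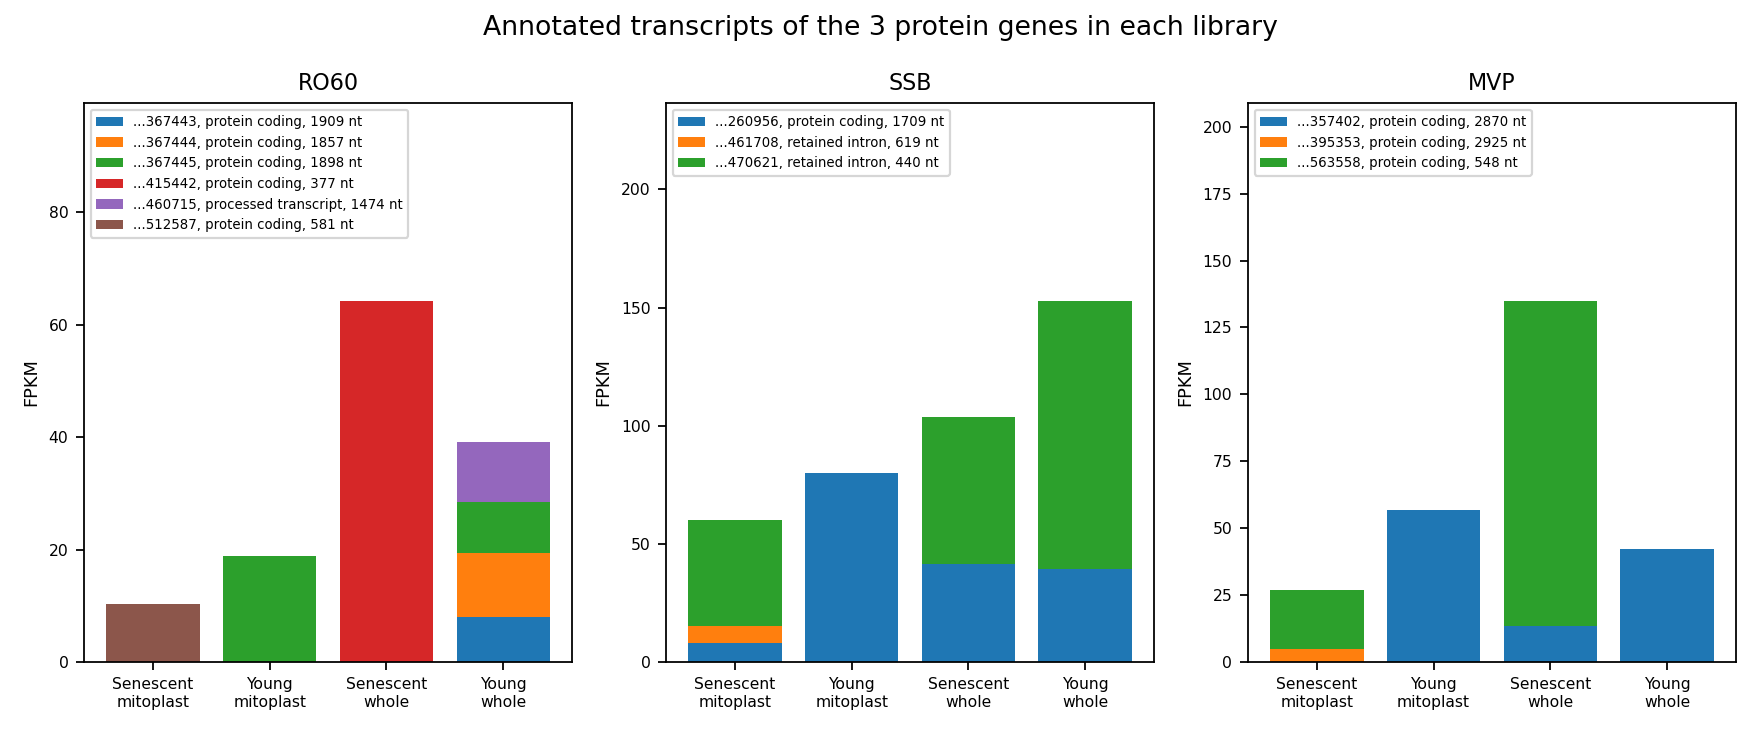
Annotated transcripts of RO60, SSB and MVP in FPKM, stacked in each library (vertical axis from 0; colours mark transcripts by the last digits of their ID, type and length). Most of each senescent bar lay in short entries, such as MVP ENST00000563558 at 121 FPKM in senescent whole cells. The same held for SSB in young whole cells, where the retained-intron entry of 440 nt made up 74.2%. The young mitoplast bars rest on 1 full-length transcript each.

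Over all genes, the senescent to young ratios in whole cells give the scale for these values. With an absolute log2 ratio of 1 or more as the threshold, 3 of the 7 genes above 0 in both whole-cell libraries were higher in senescent cells (RNY1, VTRNA1-1 and MVP) and 1 was lower (RNY4). Among all 13115 genes above 0 in both and at 1 FPKM or more in either, 12.5% were higher and 16.5% lower, with a median log2 ratio of −0.12. Among 108 other genes with 1 transcript of at most 130 nt, 28.7% were higher and 11.1% lower. RNY1 and VTRNA1-1 thus passed the threshold as higher, as did 31 of these 108 short RNAs. Rescaling to equal sums over nuclear coding genes turned the split of all genes from mostly lower to mostly higher, with 2017 higher and 1424 lower in place of 1643 and 2161, while RNY1 then stood at 1.47, VTRNA1-1 at 1.30 and RNY4 at −1.08.

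In young mitoplasts 3 of the 6 RNAs were present, and each was higher in FPKM than in young whole cells. VTRNA1-1 was at 2250 FPKM in young mitoplasts, about 134 fragments (112 to 159), against 486 FPKM in young whole cells, a log2 ratio of 2.21. RNY3 was at 558 FPKM in young mitoplasts, about 38 fragments (26.9 to 52.2), against 150.0 FPKM in young whole cells (1.89). RNY1 was at 1264 FPKM in young mitoplasts, about 142 fragments (120 to 167), against 642 FPKM in young whole cells (0.98). In the deposited FPKM the counting intervals of the levels did not overlap for any of these 3. The intervals leave out the scaling of the libraries, on which the RNY1 difference depends: its ratio was 0.26 with equal sums over annotated genes. RNY4 and VTRNA1-3 were listed at 0 in young mitoplasts, where young whole cells had 164 and 44.0 FPKM of them, and VTRNA1-2 was listed at 0 in both young libraries.

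The order of the RNAs differed between the fractions. In young mitoplasts VTRNA1-1 stood above RNY1 in FPKM, but the fragment counts of about 134 and 142 had overlapping intervals. In young whole cells RNY1 had about 119 fragments and VTRNA1-1 about 55. The summed Y RNAs were at 1822 FPKM in young mitoplasts and 956 FPKM in young whole cells (log2 ratio 0.93), and the summed vault RNAs at 2250 FPKM in young mitoplasts and 530 FPKM in young whole cells (2.08).

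An FPKM ratio between fractions compares shares of each library. In bulk RNA, less RNA per cell and fewer cells or mitoplasts holding it cannot be told apart. Other short RNAs were compared in the same way: of 39 other genes with 1 transcript of at most 130 nt above 0 in both young libraries, 71.8% passed the threshold as higher in mitoplasts and 7.69% as lower. Of the 6 members above 0 in both, 2 were higher (VTRNA1-1 and RNY3) and 1 was lower (RO60). Among all 11141 genes above 0 in both libraries, 16.8% were higher and 30.7% lower, and the median was −0.26. After rescaling to equal sums over annotated genes RNY1 was at 0.26, RNY3 at 1.17 and VTRNA1-1 at 1.49, and 910 genes were higher and 4874 lower in place of 1868 and 3417.

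The longer RNA polymerase III transcripts went the other way. RMRP, the RNA of RNase MRP, was at 1178 FPKM in young mitoplasts and 29480 FPKM in young whole cells. RPPH1, the RNA of RNase P, was at 978 FPKM in young mitoplasts and 12641 FPKM in young whole cells. The 7SK RNA, a nuclear regulator of transcription elongation, was at 795 FPKM in young mitoplasts and 31239 FPKM in young whole cells. In young whole cells RNY1, at 642 FPKM, was far under each of these RNAs. In young mitoplasts RNY1, at 1264 FPKM, was above all 3, as was VTRNA1-1 at 2250 FPKM. BCYRN1, a neuronal RNA polymerase III transcript, had 18.4 FPKM in young mitoplasts and 40.1 in young whole cells, and RNU6ATAC, a spliceosomal RNA, was listed at 0 in young mitoplasts and at 338 FPKM in young whole cells. All 4 of the RNAs on this list above 0 in both young libraries were lower in mitoplasts.

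**Figure D3:**
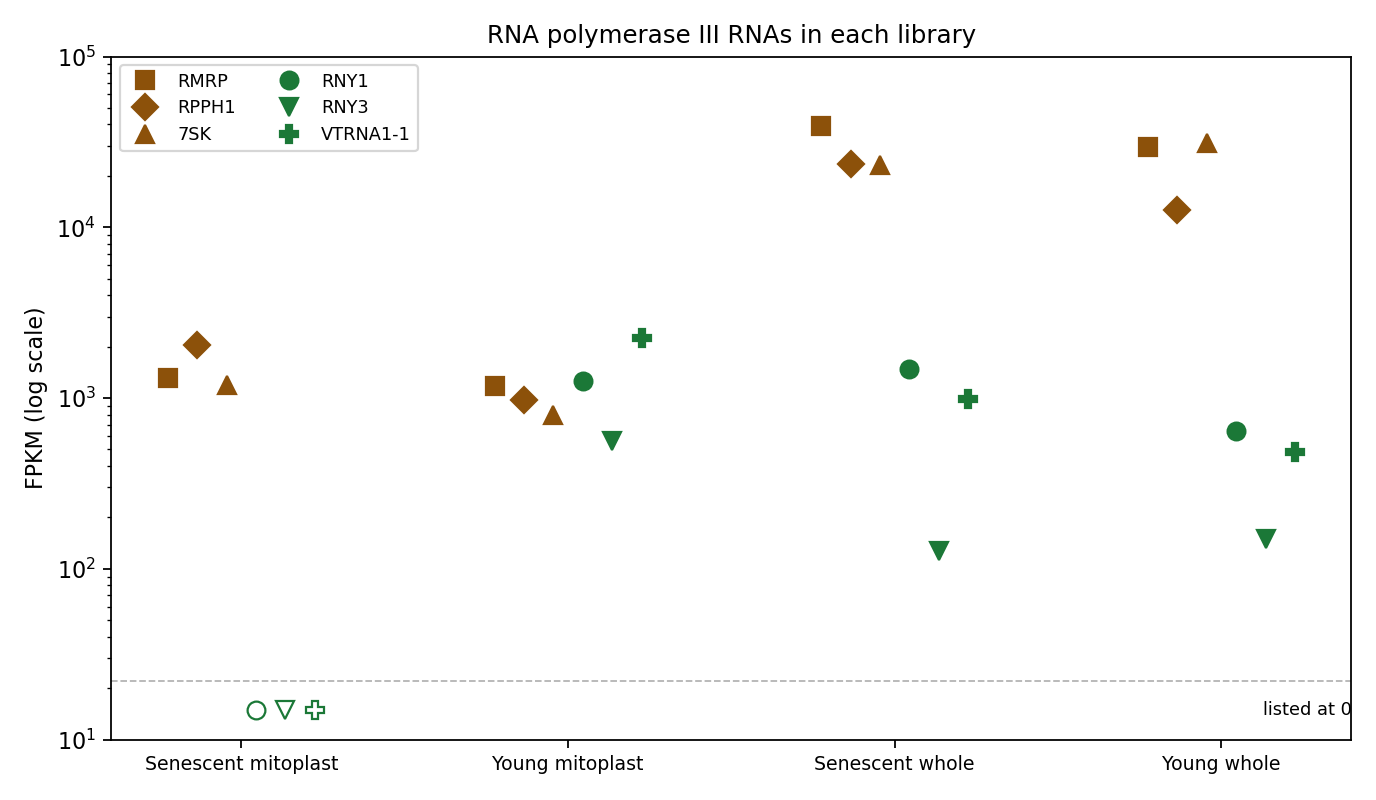
Level of 3 longer RNA polymerase III RNAs (brown) and of RNY1, RNY3 and VTRNA1-1 (green) in each library, in FPKM on a log axis; open symbols under the dashed line are values listed at 0. RMRP, RPPH1 and 7SK lay between 795 and 2042 FPKM in the mitoplast libraries and at 12641 FPKM or more in both whole-cell libraries; RNY1 and VTRNA1-1 lay above all 3 in young mitoplasts and far under them in whole cells, and the green symbols are at 0 in senescent mitoplasts.

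In senescent mitoplasts every one of the 6 RNAs was listed at 0, including RNY1, of which senescent whole cells had 1476 FPKM, and VTRNA1-1, of which young mitoplasts had 2250 FPKM. Each of the 6 RNAs was the single transcript of its own locus in all 4 libraries, so no assembled transcript of the same locus held the signal. The value of 1 fragment at 102 nt was 13.7 FPKM in senescent mitoplasts, from only 7 loci, and 14.7 FPKM in young mitoplasts, from 12. It does not measure depth alone, so how alike the depths of these libraries were is not known from it. RMRP was at 1305 FPKM, RPPH1 at 2042 FPKM and 7SK at 1194 FPKM in senescent mitoplasts, each above its level in young mitoplasts.

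Zeros were common in this library. Of 12063 genes at 1 FPKM or more in young mitoplasts, 43.2% were listed at 0 in senescent mitoplasts, and of 13055 such genes in senescent whole cells, 47.6% were. Among 13 other short genes with 1 transcript at 500 FPKM or more in young mitoplasts, as RNY1, RNY3 and VTRNA1-1 were, 4 (30.8%) were listed at 0 in senescent mitoplasts. Among 30 such genes at 100 FPKM or more in senescent whole cells, 18 (60%) were listed at 0. VIM, a fibroblast marker, was at 4312 FPKM in young mitoplasts and listed at 0 in senescent mitoplasts, and whether the members' zeros share a source with such zeros was not tested.

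The 3 protein genes were detected in all 4 libraries and were lower in senescent than in young mitoplasts. RO60 was at 10.3 FPKM in senescent mitoplasts and 18.9 FPKM in young mitoplasts (log2 ratio −0.82). SSB was at 60.2 FPKM in senescent mitoplasts and 79.8 FPKM in young mitoplasts (−0.40). MVP was at 26.8 FPKM in senescent mitoplasts and 56.8 FPKM in young mitoplasts (−1.06). The median of all genes was −0.50, and after rescaling to equal sums over annotated genes the values were 0.56 for RO60, 1.06 for SSB and 0.39 for MVP, so none of these directions held under every scaling.

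Of these 3 genes, 0 passed the threshold as higher and 1 (MVP) as lower, where 21.9% of 7381 genes were higher and 39.4% lower. Rescaling to equal sums gave 3299 genes higher and 1254 lower in place of 1618 and 2910. By transcript, SSB had its full-length coding transcript at 7.80 FPKM in senescent mitoplasts and 79.8 FPKM in young mitoplasts, a log2 ratio of −3.20, with 45.2 FPKM of its senescent value in the retained-intron entry of 440 nt. MVP had 21.9 FPKM in the entry of 548 nt and 4.96 FPKM in ENST00000395353 in senescent mitoplasts, with the full-length ENST00000357402 listed at 0. RO60 had its whole senescent value in ENST00000512587, a coding entry of 581 nt, and its whole young value in ENST00000367445, a coding transcript of 1898 nt.

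Against whole cells, the senescent mitoplast values of the protein genes were lower. RO60 was at 10.3 FPKM in senescent mitoplasts and 64.2 FPKM in senescent whole cells (−2.53). MVP was at 26.8 FPKM in senescent mitoplasts and 135 FPKM in senescent whole cells (−2.29), and SSB at 60.2 FPKM in senescent mitoplasts and 104 FPKM in senescent whole cells (−0.77). Thus 0 passed the threshold as higher and 2 of 3 as lower, where 19.3% of 7574 genes were higher and 47.8% lower and the median was −0.90. With the median of ratios as scaling, SSB stood at 0.37, and 2594 genes were higher and 2163 lower in place of 1463 and 3617.

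The same comparison in young cells had RO60 at 18.9 FPKM in young mitoplasts and 39.1 FPKM in young whole cells (−1.01). SSB was at 79.8 FPKM in young mitoplasts and 153 FPKM in young whole cells (−0.93), and MVP at 56.8 FPKM in young mitoplasts and 42.2 FPKM in young whole cells (0.42). Here the choice of transcript could turn the sign. The full-length coding transcript of SSB had 79.8 FPKM in young mitoplasts against 39.4 FPKM in young whole cells (1.00). For RO60, ENST00000367445 alone had 18.9 FPKM in young mitoplasts against 9.00 FPKM in young whole cells (0.99), but ENST00000367443 and ENST00000367444, of similar length, were above 0 in young whole cells and at 0 in young mitoplasts. With all coding transcripts of RO60 summed, the ratio was −0.56, in the direction of the gene. Adding an assembled transcript of the RO60 locus, at 65.6 FPKM in young mitoplasts, gave RO60 a log2 ratio of 1.09. MVP had the same transcript in both young libraries, and its ratio was −0.28 after rescaling to equal sums over annotated genes. The comparisons share libraries in pairs, so their values are given side by side and not as separate evidence.

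**Figure D4:**
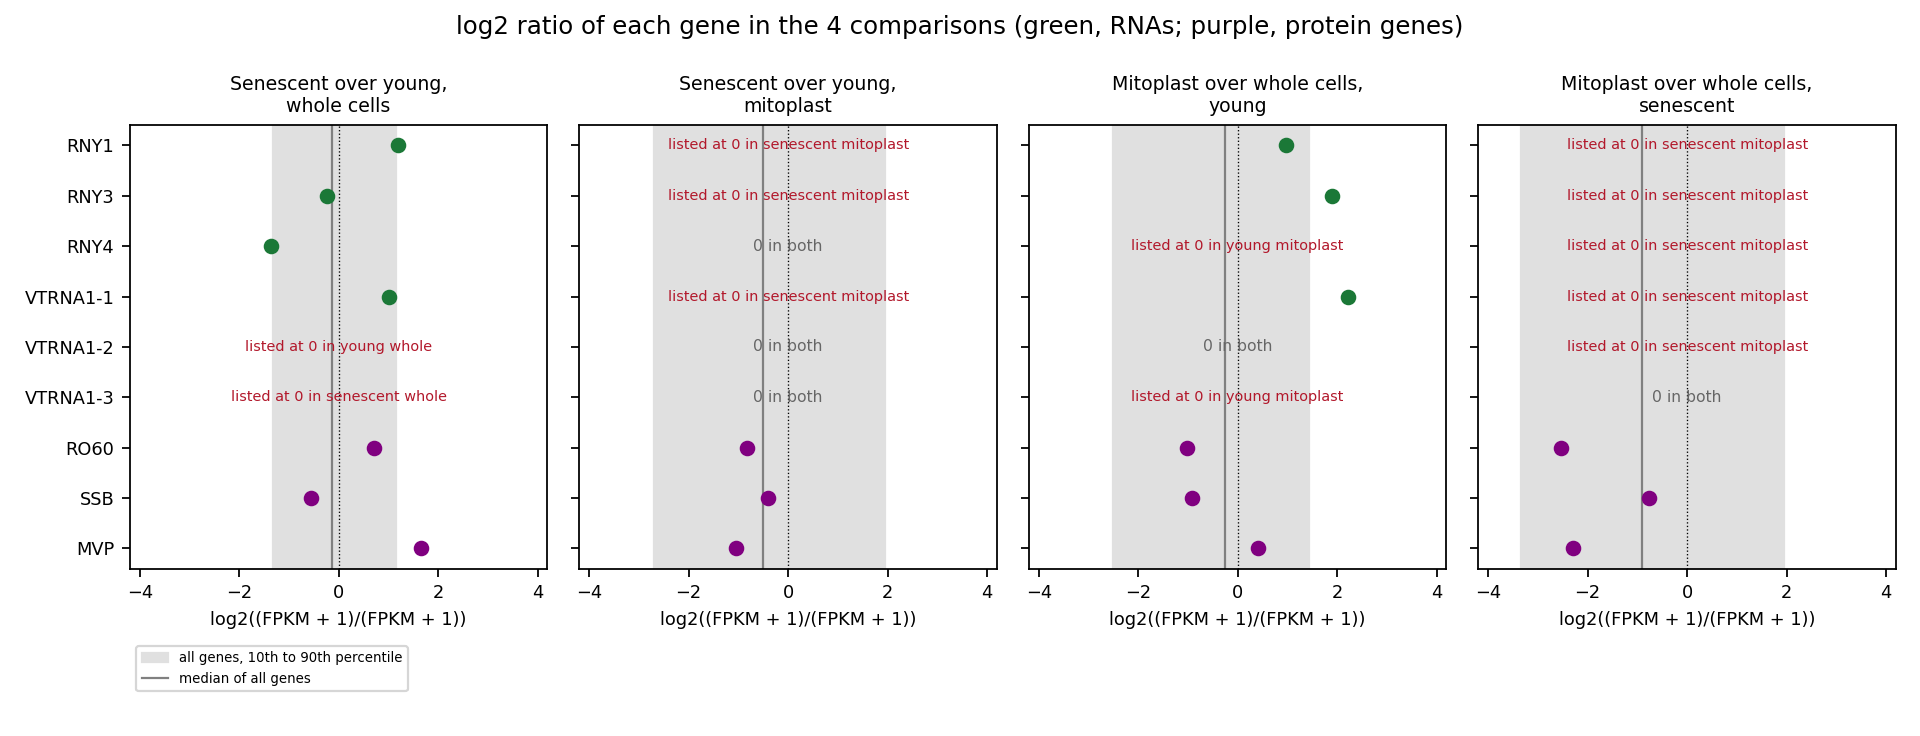
log2 ratio, log2((FPKM + 1)/(FPKM + 1)), of each gene (rows; green, RNAs; purple, protein genes) in the 4 comparisons (panels); grey bands span the 10th to 90th percentile of all genes and the grey line is their median. RNY1 (1.20), RNY4 (−1.35) and MVP (1.65) lie just or clearly outside the band in whole cells, and words in place of a point mark a library in which the gene was listed at 0.

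The genes named Y_RNA, or RNY followed by a digit and P, are genomic copies of the Y RNAs, and reads of the members can be shared with them. The files list 780 such copies, of which 75 were above 0 in at least 1 library. The number above 0 was 4 in senescent mitoplasts, 11 in young mitoplasts, 32 in senescent whole cells and 52 in young whole cells. Their summed level was 669 FPKM in senescent mitoplasts, 586 in young mitoplasts, 825 in senescent whole cells and 720 in young whole cells. The sum of RNY1, RNY3 and RNY4 was at 0 in senescent mitoplasts, 1822 FPKM in young mitoplasts, 1668 FPKM in senescent whole cells and 956 FPKM in young whole cells, a wider range than that of the copies.

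The 75 copies differed in sequence from the members. The identity of a copy to its closest member had a median of 88.2% and ran between 67.5% and 96.1%. RNY3 was the closest member of 44, RNY1 of 29 and RNY4 of 2. Only 4 of the 75 opened with the 11 shared bases, 4 ended in 4 or more T, and 64 lay within or over another annotated gene.

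The copy with the highest level in senescent mitoplasts was ENSG00000200419 on chromosome 15, in a stretch of BLOC1S6 that holds no annotated exon. It was above 0 where RNY3 was not. It was at 322 FPKM in senescent mitoplasts, about 24 fragments (15.4 to 35.7), at 248 FPKM in young mitoplasts, about 17 fragments (9.9 to 27.2), at 220 FPKM in senescent whole cells, about 24 fragments (15.4 to 35.7), and at 90.4 FPKM in young whole cells, about 11 fragments (5.5 to 19.7). A further copy, ENSG00000206967 on chromosome 11, was at 252 FPKM in senescent mitoplasts, 116 in young mitoplasts, 99.3 in senescent whole cells and 45.4 in young whole cells. These were the 2 copies above 0 in all 4 libraries, and each had its highest FPKM in senescent mitoplasts, where RNY3 itself was listed at 0. Only 4 copies were above 0 in senescent mitoplasts, and the copies named here were ordered by their level there, so the choice favours that library. The counting intervals in senescent and young mitoplasts overlapped for both, at 211 to 489 FPKM against 145 to 399 FPKM for ENSG00000200419 and at 146 to 390 FPKM against 50.7 to 231 FPKM for ENSG00000206967. Those of senescent whole cells, 141 to 328 and 50.5 to 181 FPKM, also overlapped the senescent mitoplast intervals. Those of young whole cells, 43.6 to 156 and 17.5 to 104 FPKM, did not. Next in order, ENSG00000199516 on chromosome 7, was at 72.5 FPKM in senescent mitoplasts, 42.1 in young mitoplasts and 23.2 in young whole cells, and listed at 0 in senescent whole cells. No source used here says how the authors' counting divided reads between a member and its copies. The values of the Y RNAs and their copies are uncertain to that extent. Some copies lay under the value of 1 fragment, such as ENSG00000207401, of 102 nt, at 4.34 FPKM in young whole cells, where 1 fragment was worth 7.94 FPKM. The fragment counts of the copies may therefore not be whole fragments.

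With the copies added, the summed Y RNAs had a log2 ratio of 0.57 for senescent over young whole cells and 0.52 for young mitoplasts over young whole cells, in place of 0.80 and 0.93. Of 6 other vault RNA entries, 1, named Vault (chr5:136080497-136080597, minus strand), was above 0, at 45.5 FPKM in young whole cells. It was 69.6% identical to VTRNA1-2, its closest member.

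**Figure D5:**
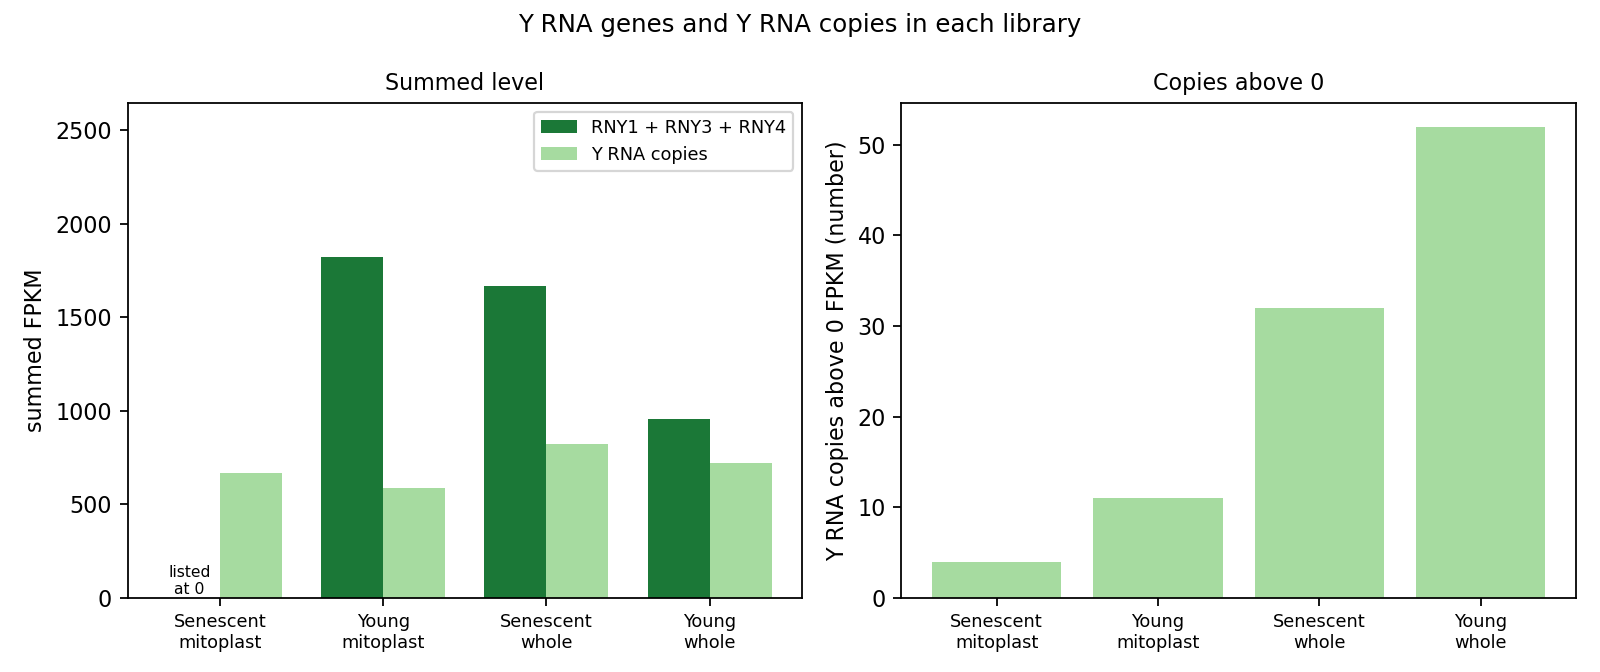
Left, summed FPKM (from 0) of RNY1, RNY3 and RNY4 (dark green) and of the Y RNA copies (light green) in each library; right, the number of copies above 0 FPKM. The copies summed to between 586 and 825 FPKM in every library, while the 3 members were listed at 0 in senescent mitoplasts and summed to 1822 FPKM in young mitoplasts.

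The vault holds 2 more proteins, measured by their genes. TEP1, a protein of the vault and of telomerase, was at 7.62 FPKM in senescent mitoplasts, 0.747 in young mitoplasts, 1.81 in senescent whole cells and 3.69 in young whole cells. PARP4, the poly(ADP-ribose) polymerase of the vault, was at 3.50 FPKM in senescent mitoplasts, 8.48 in young mitoplasts, 14.6 in senescent whole cells and 16.5 in young whole cells. Between senescent and young whole cells their log2 ratios were −0.74 and −0.16, so neither passed the threshold. Between senescent and young mitoplasts TEP1 was at 2.30 and PARP4 at −1.08, past it in opposite directions, where 21.9% of all genes were higher and 39.4% lower.

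Of 13 proteins reported to bind Y RNAs that were above 0 in both whole-cell libraries, 1 was higher and 6 lower in senescent cells, with a median log2 ratio of −0.83. YBX1, a cold-shock domain protein that binds RNA, stood at 128 FPKM in senescent whole cells and 425 FPKM in young whole cells (−1.72). Its relative YBX3 was at 34.5 FPKM in senescent and 99.8 FPKM in young whole cells (−1.51), and CALR, the chaperone calreticulin, at 66.2 FPKM in senescent and 286 FPKM in young whole cells (−2.09). In mitoplasts 1 of 12 was higher and 6 lower in the senescent library (median −0.97), with PTBP1, a splicing regulator, at 43.1 FPKM in senescent and 398 FPKM in young mitoplasts (−3.18).

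A further list held genes for modifying or binding vault RNAs or for processing small RNAs. Its 5 genes above 0 in both whole-cell libraries were NSUN2, SRSF2, ALKBH1, DROSHA and DGCR8, and none passed the threshold in either direction. NSUN2, the cytosine methyltransferase that modifies vault RNAs, was at 10.5 FPKM in senescent and 13.5 FPKM in young whole cells (−0.33). In mitoplasts it was listed at 0 in the senescent library and at 5.63 FPKM in the young one, and 3 of 4 others on the list were lower and 0 higher (median −1.81), SRSF2 with 2.89 FPKM in senescent and 60.1 FPKM in young mitoplasts (−3.97). Among the relatives of SSB with a La domain, 1 of 5 was lower and 0 higher in senescent whole cells: LARP1, which binds mRNAs of the translation machinery, was at 21.9 FPKM in senescent and 197 FPKM in young whole cells (−3.11). LARP6 was at 56.1 FPKM in senescent and 103 FPKM in young whole cells (−0.86). In mitoplasts 3 of 4 were lower and 0 higher (median −1.55).

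Of 15 nucleases and tailing enzymes that act on RNA ends, 1 was lower and 0 higher in senescent whole cells (median −0.22). USB1, a 3′ exonuclease best known for trimming U6 RNA, was at 25.8 FPKM in senescent and 57.8 FPKM in young whole cells (−1.13). In mitoplasts 1 of 10 was higher and 3 lower (median −0.24), XRN1, the cytoplasmic 5′ exonuclease, being at 35.2 FPKM in senescent and 1.47 FPKM in young mitoplasts (3.87).

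RNA polymerase III itself was measured by 18 subunit genes, of which 4 were lower and 0 higher in senescent whole cells (median −0.38). The largest drop was that of POLR2F, at 36.1 FPKM in senescent and 138 FPKM in young whole cells (−1.91). POLR3A, the largest subunit, was at 1.07 FPKM in senescent and 3.49 FPKM in young whole cells (−1.12). POLR1C was at 12.9 FPKM in senescent and 28.8 FPKM in young whole cells (−1.10), and POLR3G at 16.8 FPKM in senescent and 35.4 FPKM in young whole cells (−1.03). Among 15 transcription factors of polymerase III, 1 was higher and 2 lower (median −0.44): SNAPC3 was at 25.5 FPKM in senescent and 7.87 FPKM in young whole cells (1.58), ZNF143 at 9.69 FPKM in senescent and 59.1 FPKM in young whole cells (−2.49), and GTF3A at 4.84 FPKM in senescent and 11.4 FPKM in young whole cells (−1.09). In mitoplasts 0 of 9 subunit genes were higher and 2 lower, and 1 of 11 factors was higher and 6 lower. Of the 5 other polymerase III RNAs, 0 passed the threshold between senescent and young whole cells (median 0.41), RPPH1 being nearest with 23523 FPKM in senescent and 12641 FPKM in young whole cells (0.90). These shares are to be read beside the 12.5% and 16.5% of all genes in whole cells and the 21.9% and 39.4% in mitoplasts.

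The genes whose pattern over the 4 libraries was most like each member's were found by the root mean square difference of centred log2(FPKM + 1) values among 7779 candidate genes. RO60 was nearest to TES (0.04), HELZ (0.06), SLC2A10 (0.10), AKAP2 (0.10) and TFG (0.11). SSB was nearest to SCAF4 (0.07), SSR2 (0.08) and QARS1 (0.08), and MVP to DUSP3 (0.07), ABL2 (0.09), KATNAL1 (0.11), STK38 (0.14) and CLN3 (0.15). The summed Y RNAs had no close match: VIM (0.93), MT-ND1 (1.21), IFITM3 (1.22), LCOR (1.26) and TUBA1C (1.36) came nearest. For the summed vault RNAs the nearest were VIM (1.03), TUBA1C (1.14), IFITM3 (1.18), MT-ND1 (1.40) and COX6A1 (1.47). Of the 6 genes in these last 2 sets, VIM, MT-ND1, IFITM3 and TUBA1C were listed at 0 in senescent mitoplasts, and LCOR and COX6A1 were at 0.0127 and 0.114 FPKM there.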

How the data were processed

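The deposited files give 1 FPKM value per transcript and library, computed by the authors. The build was hg19 and the tools were Cufflinks 2.2.1, Cuffdiff and TopHat2 2.0.14, per the submitters' processing notes. No source used here gives the strand setting or how reads with several matches were handled. Of 185591 rows with an Ensembl transcript ID, 96.6% were assigned to a gene through GENCODE 29, and a gene's value is the sum of those rows. Ratios are log2((FPKM + 1)/(FPKM + 1)), and 1 or more in size is the threshold; genes under 1 FPKM in both libraries were left out of the background. With 1 library per group no test was run. Approximate fragment counts divide the FPKM of a short RNA by the value of 1 fragment, fitted over loci of 85 to 120 nt kept within 30% of the line. Short sequences were aligned with Biopython 1.88, and scripts ran in Python 3.11.15 with pandas 2.3.3. The ratio and fragment steps were tested on simulated data that differed from the short RNAs here. In the ratio simulation 1 FPKM stood for 1 fragment, where these RNAs had several FPKM per fragment. The fragment simulation had more loci and less scatter than senescent mitoplasts (7 loci, 15.3%), so it does not bear on the fragment values there. Besides the members, the genes named are up to 4 per list with the largest ratio in a comparison, together with TEP1, PARP4, NSUN2, RMRP, RPPH1 and 7SK, the 3 highest copies, and the 5 genes most alike among those at 10 FPKM or more in a library; not all are printed. The members and lists were chosen with earlier results of these data known. Alternatives changed the amount added, the filter, the scaling and the transcripts summed; using full-length transcripts only and adding the copies were chosen after seeing the data.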

Additional observations from a re-analysis of the deposited data

Results flagged for a closer look

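The differences below point in opposite directions in both fractions or at both ages; none of these contrasts between differences was tested, since each rests on 1 library per group. RNY1 and VTRNA1-1 were higher in senescent than in young whole cells (log2 ratios 1.20 and 1.02), while in mitoplasts both were listed at 0 in the senescent library and at 1264 and 2250 FPKM in the young one. RO60 was higher in senescent whole cells (0.70) and lower in senescent mitoplasts (−0.82), and MVP likewise (1.65 and −1.06). These opposite signs depend on the processing: with equal sums over annotated genes the mitoplast ratios were 0.56 for RO60 and 0.39 for MVP, with the median of ratios they were −0.01 and −0.21, and the full-length MVP transcript was at −1.58 in whole cells.

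Between the fractions, RNY1, RNY3 and VTRNA1-1 were higher in young mitoplasts than in young whole cells (0.98, 1.89 and 2.21), whereas in senescent cells all 3 were listed at 0 in mitoplasts and above 0 in whole cells. MVP was at 0.42 for young mitoplasts over young whole cells and at −2.29 for senescent mitoplasts over senescent whole cells.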

How the results depend on the processing

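No paired analysis was possible because each group holds 1 library and the labels give no number that links libraries. Among 204 ratios of members and of summed RNAs recomputed, many could not change sign. A change of the added amount or of the filter cannot turn a sign, and the choice of transcripts left the short RNAs as they were. The 204 are therefore no measure of stability. In all, 18 took the other sign, and 4 of these had passed the threshold. They were MVP for senescent over young mitoplasts with equal sums over annotated genes (0.39), MVP for senescent over young whole cells with the full-length transcript (−1.58), and RO60 for young mitoplasts over whole cells with assembled transcripts (1.09) or ENST00000367445 alone (0.99), 1 of 3 RO60 coding transcripts of similar length; with all coding transcripts RO60 was at −0.56. RNY1, RNY4 and VTRNA1-1 kept their direction in whole cells under all 3 rescalings.

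Of 136 counts past the threshold recomputed, 38 moved by more than 1.5 times; the cause was not tested. With 10 FPKM added, the numbers of genes higher and lower were 519 and 773 for senescent over young whole cells (1643 and 2161 with 1 FPKM), 655 and 1470 for senescent over young mitoplasts (1618 and 2910), 464 and 1864 for young mitoplasts over whole cells (1868 and 3417) and 580 and 2129 for senescent mitoplasts over whole cells (1463 and 3617). With equal sums over annotated genes, senescent over young mitoplasts gave 3299 and 1254, and young mitoplasts over whole cells gave 910 higher. With the median of ratios, senescent over young mitoplasts gave 2644 and 1894, and senescent mitoplasts over whole cells 2594 and 2163. With equal sums over nuclear coding genes the same comparisons gave 2745 and 1782, and 2501 and 2274, and senescent over young whole cells gave 1424 lower. With protein-coding transcripts only, 959 were higher in senescent over young mitoplasts and 919 in senescent mitoplasts over whole cells.

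The members lower in senescent than in young mitoplasts, 1 as reported, numbered 0 with 10 FPKM added and under all 3 rescalings, and 2 with assembled or with coding transcripts only; 1 was higher with equal sums over annotated genes. The members lower in young mitoplasts than in whole cells, 1 as reported, numbered 2 with equal sums over annotated genes and 0 with 10 FPKM added, either other rescaling, assembled, coding or full-length transcripts. With full-length transcripts, 2 members were lower in senescent than in young whole cells and 1 in senescent mitoplasts than in whole cells. The median of all genes for senescent over young mitoplasts was −0.50, and 0.79, 0.27 and 0.35 under the 3 rescalings.

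Of the short RNAs, RNY4, VTRNA1-2 and VTRNA1-3 rest on the fewest fragments. The counting intervals of RNY4 overlapped between senescent and young whole cells, which does not settle whether its levels differed. For VTRNA1-2 and VTRNA1-3 a difference was not detectable from so few fragments.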
